A study of Mus musculus with 2 samples.

Results

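Meiosis genes are described here in E13.5 PGCs, the precursors of eggs and sperm, that had been infected with a lentivirus and kept in culture. The group was chosen by gene symbol from a list of 37 genes for meiotic entry, meiotic cohesin, the synaptonemal complex, recombination and related steps, and 36 of them had a row of their own among the 18742 named genes above 0 in at least 1 library. The remaining gene, Msh5, was reported jointly with its neighbour Sapcd1. The PGCs came from Oct4-deltaPE-GFP transgenic embryos of MCH females mated with males of a C57BL/6J background, were sorted by intense GFP from male and female genital ridges, and were plated on gelatin. The transgene reports Oct4 in germ cells, so the sort takes germ cells by that 1 reporter. One library was made from control PGCs (control lentivirus) and 1 from Klf9-OE PGCs (lentivirus with the Klf9 coding region), both at an MOI of 5 and after 1 day of culture. The labels and the composition in the study's methods give a medium with bFGF, while its results section describes this culture as lacking bFGF, the same for both conditions. With 1 library per condition no difference below has a replicate check and no test across cultures could be made, and fewer cells of a type cannot be told apart from less RNA per cell.

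Meiosis is the division that makes haploid cells from diploid ones. In the mouse, germ cells of the fetal ovary start it at about the stage sampled here, after retinoic acid and BMP signals and the induction of Stra8, while germ cells of the fetal testis stop dividing and enter meiosis only after birth. Cells that enter it load meiosis-specific cohesin, build a protein axis along each chromosome, cut their DNA on purpose, repair the cuts on the homologous chromosome, and hold the homologs together with the synaptonemal complex. Many of these genes are kept silent in other cells by the PRC1.6 complex, which binds their promoters through MGA-MAX and E2F6.

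The meiosis genes were transcribed at high levels in both libraries, and none of the 36 differed 2-fold between them. Levels are given as RPKM, read numbers scaled to transcript length and to the total mapped in the library, which can be compared between genes, each followed by the 95% interval that Cufflinks gives for the estimate within a library. The median level was an RPKM of 59.7 in the control library and 55.6 in the Klf9-OE library, against 3.85 and 3.81 over all named genes. The RPKM was 10 or more in both libraries for 33 of the 36 genes (91.7%), compared with 33.8% of all genes. The lowest gene, Mei4, still stood at percentile 52.6 of all genes in the control library and at percentile 51.2 in the Klf9-OE library. The levels spanned a range of 117-fold in the control library and 134-fold in the Klf9-OE library, and 9 of the 10 highest genes were shared. Of 35 pairs of neighbours in the order of levels, 16 in the control library and 17 in the Klf9-OE library had intervals that did not overlap, so the order within the remaining pairs is not resolved.

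**Figure D1:**
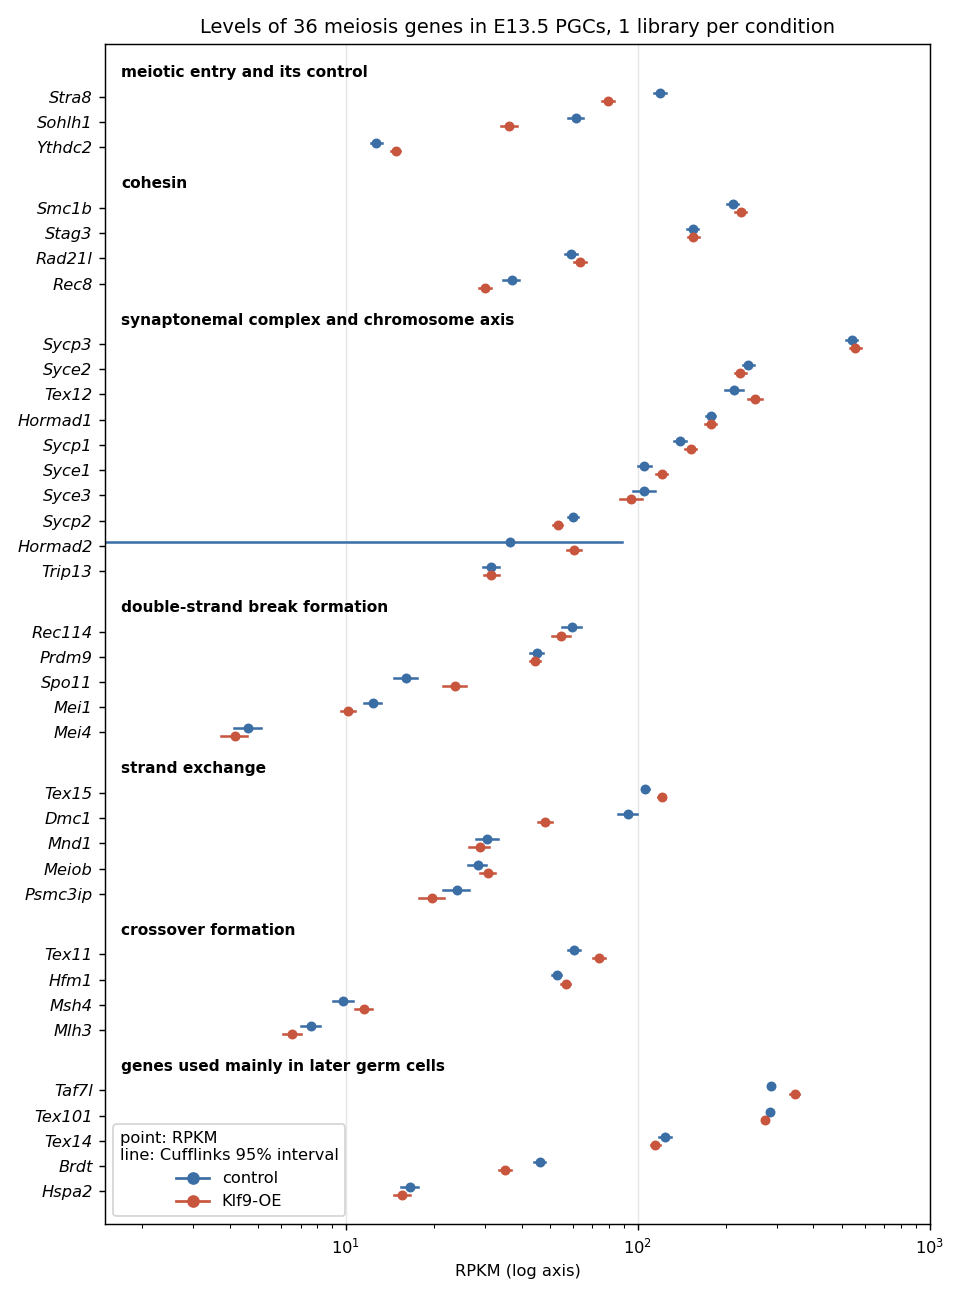
RPKM (log axis) of the 36 meiosis genes in the control library (blue) and the Klf9-OE library (red), grouped by role, with lines for the Cufflinks 95% interval, which for Hormad2 in control PGCs starts at 0 and is cut at the left edge. Sycp3 is highest at 541 and 557, Mei4 lowest at 4.64 and 4.16, and the points of most genes lie close together.

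Differences are given as the change in log2(RPKM + 0.1), Klf9-OE minus control, with a standard error (SE) taken from both intervals, so that it covers estimation within the libraries only. The median difference of the meiosis genes was -0.01 (quartiles -0.16 and 0.14), beside -0.015 over all named genes, and became 0.02 or 0.05 when the libraries were rescaled to the same upper quartile or the same sum. By the rule of a change of at least 1, 0 of 36 were higher and 0 were lower. Over all named genes 4.52% were higher and 4.0% were lower by that rule, and among the 6344 genes with an RPKM reaching 10 in both libraries 0.631% and 0.930%. A count of 0 among 36 is therefore near what the genes of this level show. The libraries' intervals did not overlap for 9 genes that were higher and 8 that were lower in Klf9-OE PGCs. The same held for 11.2% (higher) and 14.4% (lower) of all named genes, and for 13.4% and 22.7% of those with an RPKM reaching 10 in both libraries. A difference of at least 0.5 on the log2 scale was seen for 5 genes, namely Dmc1, Sohlh1 and Stra8, which were lower, and Spo11 and Hormad2, which were higher. That of Hormad2 is not resolved, since its control interval ran from 0 to 88.4. Differences of at least 0.5 were found in 7.42% of genes with an RPKM reaching 10 in both libraries.

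**Figure D2:**
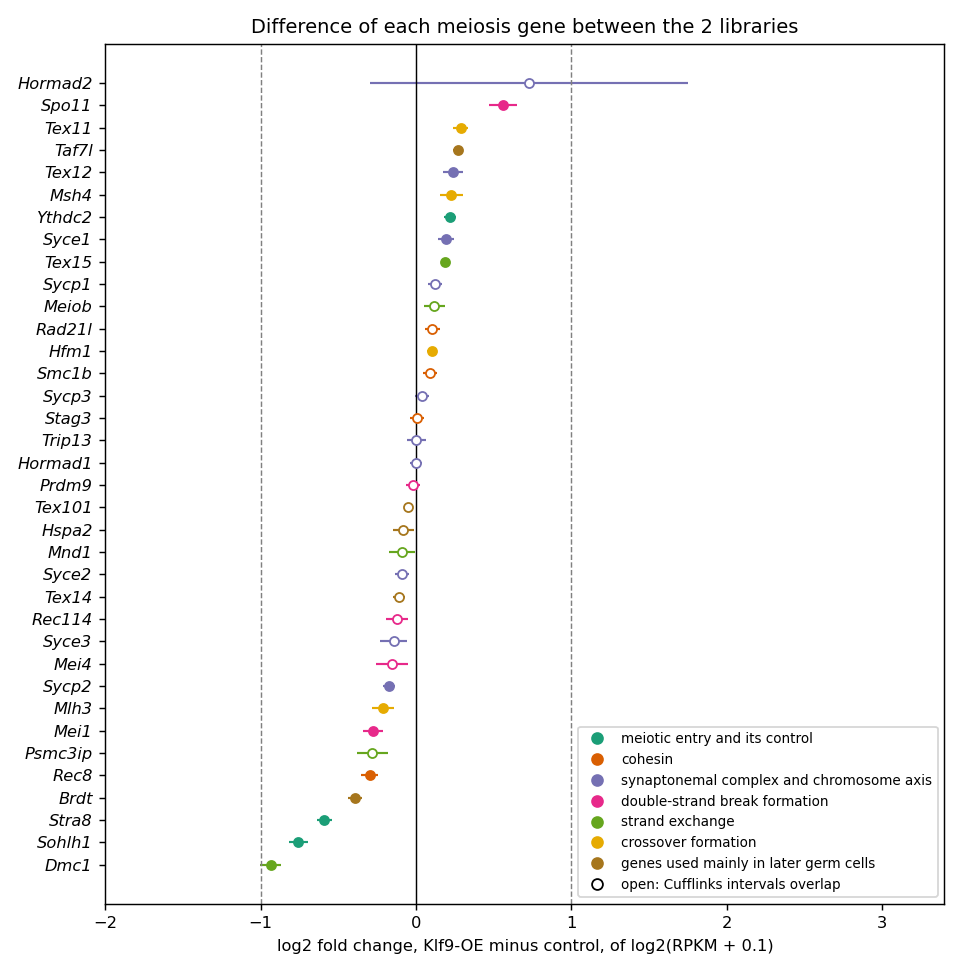
Log2 fold change of each meiosis gene (Klf9-OE minus control), ordered by size and coloured by role, with bars for the SE from the Cufflinks intervals and filled points where the intervals did not overlap. No point lies beyond the dashed lines at -1 and 1, and Dmc1 at -0.94 comes closest.

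The genes of meiotic entry showed lower levels of both transcriptional regulators. Stra8, the retinoic acid target needed for the start of meiosis, lies on chromosome 6 of mm10 from 34920163 to 34939344 with 10 exons. Its RPKM was 119.6 (114 to 125) in the control library and 79.4 (75.7 to 83.0) in the Klf9-OE library, a difference of -0.59 (SE 0.047). Sohlh1, a helix-loop-helix factor of germ cell differentiation with 8 exons on chromosome 2 from 25842995 to 25847248, had 61.4 (57.9 to 64.9) in the control library and 36.3 (34.0 to 38.6) in the Klf9-OE library, a difference of -0.76 (SE 0.061). For both genes the Klf9-OE interval lay below the control interval. Its partner Sohlh2, not among the 36, was also lower at 43.1 (41.3 to 44.8) and 38.2 (36.8 to 39.7), a difference of -0.17. Ythdc2, an RNA helicase that helps cells leave the mitotic programme, was at 12.7 (12.2 to 13.3) in the control library and 14.8 (14.3 to 15.4) in the Klf9-OE library, with the higher interval in Klf9-OE PGCs.

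Meiotic cohesin is a ring that holds sister chromatids together. Transcripts of all its listed subunits were found, with 1 difference beyond the intervals. Smc1b had an RPKM of 212 (203 to 221) in the control library and 226 (216 to 236) in the Klf9-OE library. Stag3 was at 155 in each (148 to 161 and 148 to 162). The kleisin Rad21l, which closes the ring, was at 59.1 (56.2 to 62.0) and 63.6 (60.7 to 66.5). The intervals of these subunits overlapped between the libraries, although those of Smc1b and Rad21l were apart (higher) at the same sum. Rec8, the other meiotic kleisin and like Stra8 a gene that responds to retinoic acid (chromosome 14, 55618037 to 55625395), was lower, with 36.98 (34.7 to 39.3) in the control library and 30.0 (28.6 to 31.4) in the Klf9-OE library, a difference of -0.30 (SE 0.056).

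The meiotic subunits can be set beside their counterparts in dividing cells on the same scale. Smc1b was 5.05 times the level of Smc1a in the control library and 5.11 times in the Klf9-OE library. Stag3 was 4.75 and 4.64 times the level of Stag1, and 7.23 and 7.71 times that of Stag2. Among the kleisins the order was the reverse. Rad21, the kleisin of mitosis, stood at 123 (121 to 126) in the control library and 130.4 (125 to 136) in the Klf9-OE library. Rec8 was at 0.300 and 0.230 times the level of Rad21, and Rad21l at 0.479 and 0.488 times. The row of Rec8 was assembled in the control file only and that of Rad21 in the Klf9-OE file only. The part of this in the shift of their ratio was not tested.

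**Figure D3:**
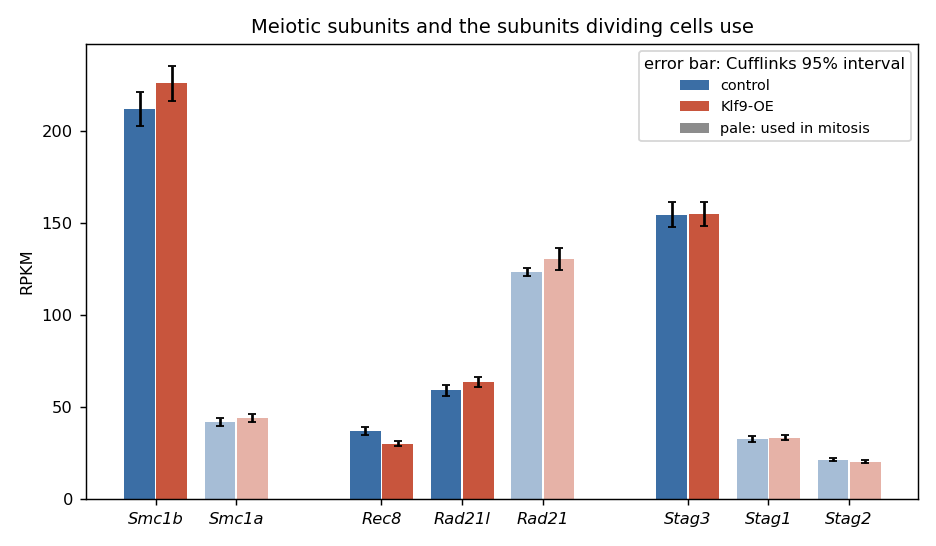
RPKM of meiotic subunits (dark bars) beside the subunits used in mitosis (pale bars) in control (blue) and Klf9-OE (red) PGCs, with error bars for the Cufflinks 95% interval. Smc1b and Stag3 exceed their counterparts in both libraries, and Rec8 and Rad21l stay below Rad21.

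The synaptonemal complex and chromosome axis held the most abundant transcript of the group, followed in both libraries by Taf7l and Tex101 of the later germ cell genes. Sycp3, a component of the axis with 9 exons on chromosome 10 from 88459569 to 88473236, was the highest of all 36 with an RPKM of 541 (517 to 566) in the control library and 557 (532 to 581) in the Klf9-OE library. Its axis partner Sycp2 was far less abundant, at 59.9 (57.5 to 62.3) and 53.1 (51.3 to 54.9), and its intervals did not overlap. Sycp1, the transverse filament that bridges the axes, was at 139.7 (133 to 146) and 152 (145 to 159). These levels differed by no more than 0.17 on the log2 scale, and only the intervals of Sycp2 were apart, joined by those of Sycp1 (higher) after either rescaling.

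The central element, which joins the ends of the Sycp1 filaments, was represented by Syce1, Syce2, Syce3 and Tex12. Tex12 was higher in Klf9-OE PGCs, with an RPKM of 253 (239.6 to 267) against 215 (199.9 to 229), and so was Syce1, with 121 (115 to 126) against 106 (99.9 to 111). Syce2, to which Tex12 binds, was at 239 (229 to 249.9) in the control library and 225 (215 to 235) in the Klf9-OE library. Syce3 was at 105 (96.0 to 114) and 95.2 (87.3 to 103). The element thus held differences of either sign, from -0.14 for Syce3 to 0.24 for Tex12, and the intervals of Syce2 and Syce3 overlapped. Of the HORMA-domain proteins that mark unsynapsed axes, Hormad1 was at 178 in each library (171 to 185 and 170.5 to 185). Hormad2 was at 36.6 and 60.5, but its control interval ran from 0 to 88.4, so this gene carries no usable estimate of change (0.73, SE 1.02). Trip13, the ATPase that removes HORMA-domain proteins from synapsed axes, was at 31.5 (29.5 to 33.5) and 31.6 (29.7 to 33.5).

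Genes that form the DNA double-strand breaks included the lowest gene of the group, Mei4, and Spo11 differed most. Spo11, the enzyme that cuts the DNA (chromosome 2, 172977700 to 172993576, 13 exons), was at an RPKM of 16.03 (14.6 to 17.5) in the control library and 23.7 (21.6 to 25.8) in the Klf9-OE library, 1.48-fold higher with a difference of 0.56 (SE 0.091). Its accessory factor Mei1 was lower, at 12.4 (11.5 to 13.2) and 10.2 (9.63 to 10.8). Spo11 and Mei1 thus lay on opposite sides, each with intervals apart. Rec114 and Mei4, which act together at the axis, were at 59.4 (55.0 to 63.8) and 54.6 (50.7 to 58.4), and at 4.64 (4.15 to 5.13) and 4.16 (3.74 to 4.58). Prdm9, the histone methyltransferase that directs breaks to hotspots, was at 45.1 (42.7 to 47.4) and 44.4 (42.6 to 46.2). The intervals of Rec114, Mei4 and Prdm9 overlapped.

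Among the genes of strand exchange, the largest difference of the whole group was that of Dmc1. Dmc1, the meiosis-specific recombinase that pairs a broken strand with the homolog, lies on chromosome 15 from 79561497 to 79605109 with 14 exons. Its RPKM was 92.4 (85.6 to 99.2) in the control library and 48.3 (45.6 to 50.9) in the Klf9-OE library, 0.522 times the control level and a difference of -0.94 (SE 0.066). The factors that assist it differed less. Mnd1 and Psmc3ip, which form the complex that stimulates Dmc1, were at 30.6 (28.0 to 33.2) and 28.8 (26.5 to 31.0), and at 24.0 (21.6 to 26.4) and 19.7 (17.8 to 21.7), and the intervals of each overlapped. Meiob, a single-strand DNA-binding protein, was at 28.3 (26.3 to 30.3) and 30.7 (28.9 to 32.6). Its partner Spata22, not among the 36, was at 70.5 (66.7 to 74.3) and 57.0 (54.0 to 59.9), a difference of -0.31. Tex15, needed for meiotic recombination, was higher at 121 (117 to 124) in Klf9-OE PGCs against 106 (103 to 109) in control PGCs.

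The genes that turn repair intermediates into crossovers lay on both sides of control. Tex11, an X-linked gene of crossover formation, was at an RPKM of 60.6 (57.5 to 63.6) in the control library and 73.9 (70.4 to 77.4) in the Klf9-OE library, a difference of 0.29 (SE 0.050). The helicase gene Hfm1 was at 52.7 (50.9 to 54.5) and 56.6 (54.8 to 58.5), and Msh4, which forms a clamp with Msh5, at 9.82 (9.05 to 10.6) and 11.5 (10.7 to 12.3). Mlh3, an endonuclease subunit that acts later, was lower at 7.60 (7.04 to 8.16) and 6.55 (6.07 to 7.02). The intervals of all 4 genes were apart, but those of Hfm1, Msh4 and Mlh3 overlapped once the Klf9-OE intervals were widened by the square root of 2, and those of Mlh3 also at the same upper quartile or the same sum. The joint locus of Msh5 and Sapcd1 was at 25.2 (23.2 to 27.3) and 19.11 (15.6 to 22.6), which cannot be divided between its genes.

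Several listed genes serve mainly in later germ cells, and most of these were abundant. Taf7l, an X-linked relative of a general transcription factor subunit, was at an RPKM of 286 (281 to 291) in the control library and 345 (332 to 358) in the Klf9-OE library, a difference of 0.27 (SE 0.030). Tex101, a surface protein of germ cells, was at 283 (276 to 290.4) and 273 (267 to 279), and Tex14, which keeps intercellular bridges open, at 124 (119 to 129.7) and 115 (111 to 119). Only Taf7l of these had intervals apart. Brdt, a bromodomain protein of spermatocytes and spermatids, was lower at 46.2 (44.2 to 48.3) and 35.2 (33.6 to 36.9), a difference of -0.39. The heat shock gene Hspa2 was at 16.6 (15.4 to 17.7) and 15.6 (14.6 to 16.6), with intervals that overlapped.

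How the rows were built moved with some of these calls. Cufflinks assembled transcripts in each library, and 23 of the 36 genes had an assembled row in both files, 7 had the reference row in both, and 6 had an assembled row in 1 file only. These 6 were Rec8, Mei1, Mlh3, Sycp3, Tex11 and Taf7l, and 5 of them had intervals apart. The sign followed the row type in all 6, since Rec8, Mei1 and Mlh3, assembled in the control file only, were at -0.30, -0.28 and -0.21, and Sycp3, Tex11 and Taf7l, assembled in the Klf9-OE file only, at 0.04, 0.29 and 0.27. Among the 7 with the reference row in both files the number was 1 (Ythdc2), and among the 23 assembled in both it was 11, with Dmc1, Sohlh1, Stra8 and Spo11 among them. The part of the row type in the differences was not tested. Without the 6 genes of mixed row type, 7 higher and 5 lower genes with intervals apart were left.

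Other genes of meiosis, 21 of 30 listed being measured, showed a similar spread. Their median difference was 0.06 (quartiles -0.06 and 0.18), and 6 higher and 4 lower genes had intervals apart. Of these genes, 1 differed 2-fold. Hsf2bp, whose protein binds BRCA2 and acts in meiotic recombination, was at an RPKM of 73.4 (67.2 to 79.5) in the control library and 34.5 (32.6 to 36.4) in the Klf9-OE library, a difference of -1.09 (SE 0.072). Hsf2bp and Dmc1 were thus the lowest relative to control in their lists. On the higher side, Rad51ap2 was at 21.8 (20.4 to 23.2) and 30.4 (28.7 to 32.1), and Ccdc155, which links telomeres to the cytoskeleton, at 9.69 (8.59 to 10.8) and 12.7 (11.4 to 13.9). Levels near equal in both libraries were found for the telomere gene Ccdc79 (31.7 and 30.8), the break-formation gene Ccdc36 (20.6 and 20.5) and the central element gene 4930447C04Rik (152 and 161). Cntd1 was listed at 0 in both libraries.

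**Figure D4:**
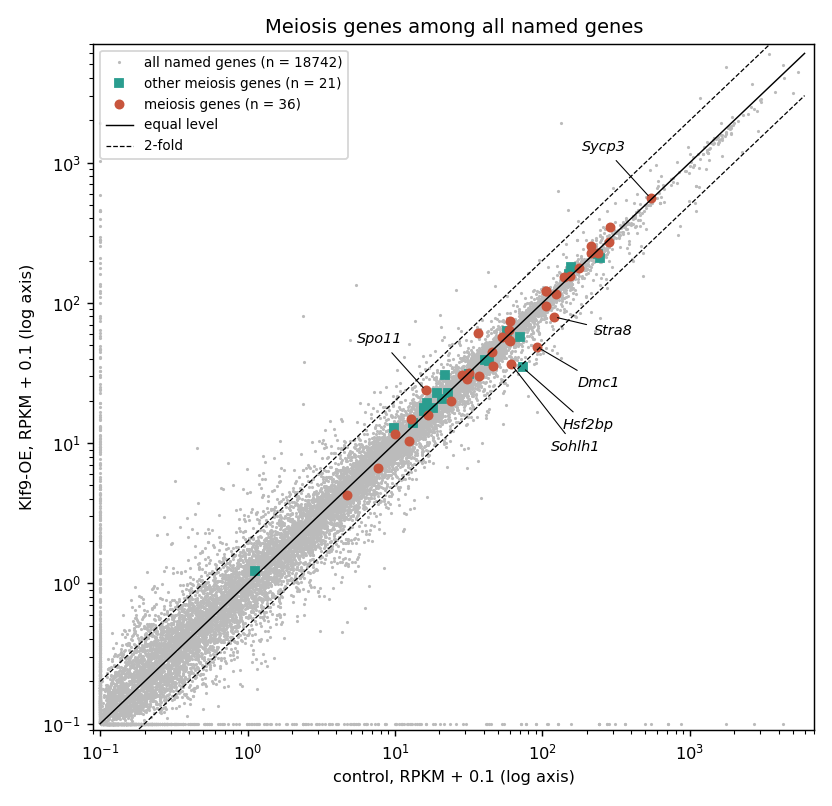
RPKM + 0.1 in Klf9-OE PGCs against control PGCs (log axes) for 18742 named genes (grey), 36 meiosis genes (red circles) and 21 other meiosis genes (green squares), with the line of equal level and dashed lines at 2-fold. Hsf2bp, at 73.4 and 34.5, is the only coloured point outside the dashed lines.

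The promoters of the meiosis genes were searched for 4 short motifs on both strands in RefSeq windows of GRCm38.p6 running from 250 bases before to 50 bases after the RefSeq start. Windows were found for 32 of the 37 genes, and for 11 of these no window was drawn from a start within 50 bases of the GENCODE start of the gene, Stra8, Rec8, Mei1, Stag3 and Rec114 among them. The E-box CACGTG, the site of MGA-MAX and other helix-loop-helix factors, was present for 10 of the 32 (31.2%), compared with 8.09% of 27025 genes. The E2F motif GCGGGA was present for 16 (50%, against 22.05%), the GC box GGGCGG for 17 (53.1%, against 38.2%), and the GT box CCACCC for 6 (18.8%, against 34.0%). GC and GT boxes are the sites that Sp and Klf factors are known to bind, and matches of GCGGGA and GGGCGG may share bases. Of 20 DNA repair genes with a window, 1 held the E-box, 13 the E2F motif, 15 the GC box and 4 the GT box. E-box and E2F letters together were found for 7 of 32 genes, namely Hormad1, Sycp3, Sycp1, Stag3, Syce2, Tex12 and Rec114, against 2.32% of all genes. Of the 8 genes that were lower with intervals apart, 2 held an E-box (Sohlh1 and Brdt), 2 an E2F motif (Dmc1 and Rec8), and 0 held both. Both were held by 1 of the 5 higher genes with a window (Tex12) and by 6 of the 18 genes with overlapping intervals, and these counts were not tested. These are counts of letters in a short window and show no binding.

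The bases before the start are shown for the lower genes Sohlh1 and Dmc1 and for Sycp3, Hormad1 and Sycp1, whose levels were close in the libraries, so that the motifs can be compared. Capitals mark the E-box and, read on either strand, the E2F motif, and each sequence runs 5′ to 3′ toward the gene. The windows lie at chr2:25847249-25847498, reverse strand for Sohlh1, chr15:79605110-79605359, reverse strand for Dmc1, chr10:88459337-88459568, forward strand for Sycp3 (ended where an annotated exon begins), chr3:95559427-95559676, forward strand for Hormad1 and chr3:102936101-102936350, reverse strand for Sycp1.
Sohlh1: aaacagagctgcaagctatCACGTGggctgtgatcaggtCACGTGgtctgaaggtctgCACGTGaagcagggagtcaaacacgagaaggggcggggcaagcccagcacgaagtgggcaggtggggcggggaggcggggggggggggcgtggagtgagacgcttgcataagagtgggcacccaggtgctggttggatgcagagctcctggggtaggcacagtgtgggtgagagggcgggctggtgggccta
Dmc1: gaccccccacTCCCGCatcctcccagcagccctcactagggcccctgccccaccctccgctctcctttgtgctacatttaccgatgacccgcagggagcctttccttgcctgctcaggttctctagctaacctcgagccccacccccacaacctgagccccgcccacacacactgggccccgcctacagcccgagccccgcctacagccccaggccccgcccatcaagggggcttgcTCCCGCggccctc
Sycp3: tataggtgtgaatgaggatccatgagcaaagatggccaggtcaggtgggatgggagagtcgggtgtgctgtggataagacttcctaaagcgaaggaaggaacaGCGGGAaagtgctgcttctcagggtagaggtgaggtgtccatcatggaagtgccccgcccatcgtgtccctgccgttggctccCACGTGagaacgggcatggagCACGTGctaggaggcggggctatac
Hormad1: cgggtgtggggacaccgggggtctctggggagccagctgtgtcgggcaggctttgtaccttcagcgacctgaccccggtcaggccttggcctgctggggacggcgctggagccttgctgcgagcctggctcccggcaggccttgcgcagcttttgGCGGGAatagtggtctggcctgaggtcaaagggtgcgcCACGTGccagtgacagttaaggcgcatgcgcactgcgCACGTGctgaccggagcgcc
Sycp1: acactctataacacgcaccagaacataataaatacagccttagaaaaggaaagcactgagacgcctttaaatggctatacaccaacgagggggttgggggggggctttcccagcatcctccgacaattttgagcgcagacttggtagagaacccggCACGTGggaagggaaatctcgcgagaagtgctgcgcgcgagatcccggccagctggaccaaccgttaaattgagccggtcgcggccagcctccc
Sohlh1 carried 3 E-boxes far from the start, beginning 231, 211 and 192 bases before it, and no E2F motif. Sycp3 and Hormad1 each carried 2 E-boxes nearer to it, at 64 and 43 bases and at 57 and 20 bases, with an E2F motif upstream. For Sycp3 these count from the RefSeq start, which lies 18 bases inside the GENCODE gene. Sycp1 had a single E-box at 94 bases, and its E2F match lies past the start. Dmc1 had E2F motifs at either end of the stretch and no E-box. In the stretches shown, GC boxes numbered 3 for Sohlh1, 2 for Dmc1, 1 for Sycp3 and 0 for Hormad1 and Sycp1, and GT boxes 2 for Dmc1 and 0 for the other genes.

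The regulators of these promoters and of meiotic entry were measured from 2 further lists. Of 14 PRC1.6 repressor genes listed, 13 were measured. Mga itself could not be compared, since the control library reported it jointly with Mapkbp1. Of the 13, 11 had overlapping intervals, among them Max (28.9 and 30.4), E2f6 (26.7 and 24.8), Pcgf6 (31.7 and 34.0) and L3mbtl2 (32.8 and 33.4). Their median difference, over all 13, was 0.03. The exceptions were Ring1, at an RPKM of 7.77 (6.06 to 9.49) in the control library and 3.71 (3.18 to 4.23) in the Klf9-OE library, and Hdac2, at 246 (237 to 255) and 195 (192 to 199). Of 8 retinoic acid response genes, 5 were below an RPKM of 1 in control PGCs, so their ratios rest on little signal. The best measured of them, Crabp2, a carrier protein of retinoic acid, was at 89.6 (83.9 to 95.4) and 39.9 (37.3 to 42.6), a difference of -1.16 (SE 0.066). Zglp1, a BMP-dependent factor of the female germ line, was at 20.8 (18.6 to 22.9) and 26.1 (23.9 to 28.3). The rows of Crabp2 and Hdac2 were assembled in the control file only. Crabp2 and Zglp1 thus lay on opposite sides, each with intervals apart, and the list held 2 higher and 2 lower genes of that kind with a median of -0.009.

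Since female and male germ cells differ in meiosis at this stage, genes that mark either sex were read beside the group. The labels do not give the share of each sex in the libraries. Xist is transcribed from the inactive X chromosome. Its RPKM was 0.829 (0.739 to 0.920) in the control library and 2.05 (1.91 to 2.20) in the Klf9-OE library, a difference of 1.21. Whether these reads came from germ cells or from other cells was not tested. The 8 Y-linked genes had a median difference of -0.15, with 6 of 8 lower, and the intervals of 1 of them were apart (Eif2s3y, 59.0 and 49.3). The 8 genes of male fetal germ cells were all lower, 7 with intervals apart and with a median difference of -0.57. Dnmt3l, a cofactor of DNA methylation in male germ cells, was at 80.9 (77.2 to 84.7) and 38.1 (35.97 to 40.2), whereas Nanos2, the factor that blocks meiosis in the fetal testis, was at 4.85 (4.09 to 5.61) and 4.68 (3.995 to 5.36). Among 228 X-linked genes with an RPKM reaching 10 in both libraries the median difference was -0.02, and among 6111 autosomal genes -0.03, a comparison chosen after the values were seen. Intervals were apart and lower for 57 of the 228 X-linked and 1380 of the 6111 autosomal genes. They were apart and higher for 45 of the 228 and 805 of the 6111, and for both X-linked meiosis genes, Tex11 and Taf7l. The part of the X chromosome in their differences was not tested. The part of sex composition in the differences of the meiosis genes was not tested.

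The identity of the cells was checked with marker lists. Of 9 germ cell markers, Ddx4 (299.9 and 292) and Dazl (351 and 378) were abundant in both libraries, and 7 were lower in Klf9-OE PGCs with intervals apart, among them Dppa3 (294 and 179) and Pou5f1 (387 and 277). The median of the list was -0.39, against -0.01 for the meiosis genes. The rows of Pou5f1 and Kit were assembled in the control file only, and those of Dnd1 and Tfap2c in the Klf9-OE file only. Each of these genes was lower with intervals apart. Of 10 Sertoli and pre-granulosa markers, 7 were below control, and the median difference of the list was -0.22. Intervals were apart for 3 that were higher (Amh, 5.99 and 9.29, Wt1, 3.41 and 5.64, and Gata4, 6.21 and 7.47) and 1 that was lower (Sox9, 2.04 and 1.09). The RPKM of the 10 ranged from 0.314 to 6.21 in control PGCs (sum 28.4) and from 0.257 to 9.29 in Klf9-OE PGCs (sum 32.1). The summed RPKM of 5 endothelial markers was 3.46 and 6.31, and that of 5 macrophage markers 4.19 and 5.50. Cdh5 (1.995 and 5.09) and Csf1r (0.307 and 1.18) were at least 2-fold higher. Of the endothelial markers 3 of 5 were below control, Tek (0.735 and 0.439) with intervals apart, and the median difference was -0.04. Of the macrophage markers 2 of 5 were below control, with a median difference of 0.15. The part of these cells in the differences of the meiosis genes was not tested. Of the 20 markers of these cells, only Emcn was listed at 0, in the Klf9-OE library. The rows of Wt1 and Csf1r were assembled in the Klf9-OE file only, as were those of Cd68, Fst and Tie1, whose intervals overlapped. Klf9 itself was at 2.27 in the control library and 80.8 in the Klf9-OE library.

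**Figure D5:**
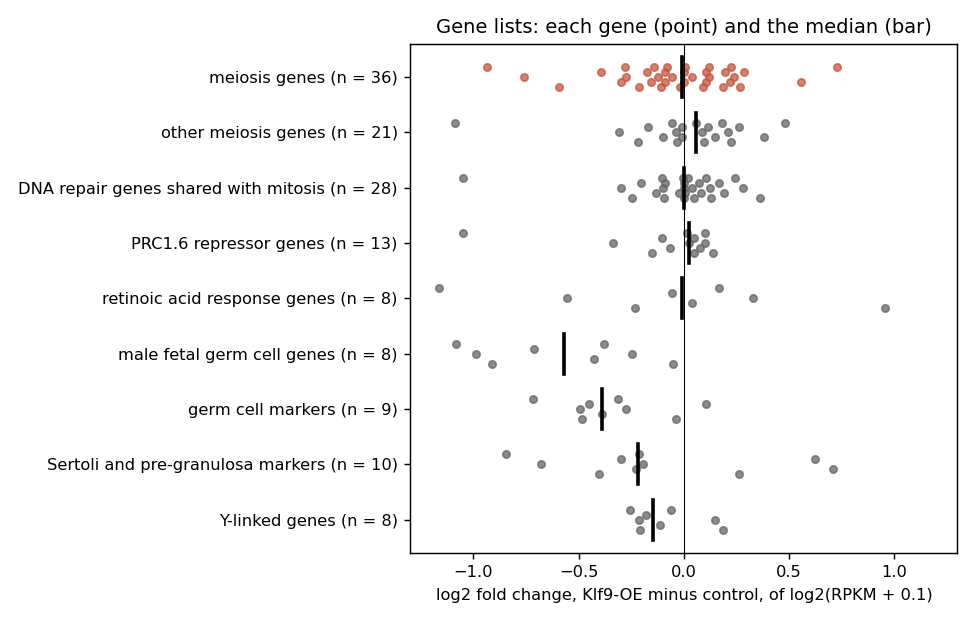
Log2 fold change (Klf9-OE minus control) of every measured gene (points) of 9 lists, with a bar at each median. The median of the meiosis genes lies at -0.01, that of the male fetal germ cell genes at -0.57 and that of the germ cell markers at -0.39.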

How the data were processed

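RNA-seq libraries of control and Klf9-OE E13.5 PGCs were analysed from the deposited tables, 1 per condition. Per the labels and the methods of the authors, libraries were made with a TruSeq v2 kit and single-end reads of 51 bases were aligned by TopHat2 and Bowtie (mm10) before quantification by Cufflinks (versions not given in the sources used here). No source states a strand setting, so overlapping antisense genes may share reads. The deposited values are FPKM per gene locus, equal to RPKM for single-end reads, with the bounds of a 95% interval. Transcripts were assembled per library, which can change the length a value rests on.

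Rows of 1 symbol were summed. A gene was called at a change of at least 1 in log2(RPKM + 0.1), which understates the change of low genes, and intervals were compared for overlap. SEs take each bound as 2 SD. Members and lists were chosen with earlier results of these data known. By the rule for named genes all listed meiosis genes were named, and of other lists those at least 2-fold apart with an RPKM of 1 or more in either library, while further members were named after their values were seen.

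The files hold no read totals, so depth is unknown and precision was read from the intervals, whose half-widths were 1.74% to 10.6% of the level for all members except Hormad2. For genes with a single start site, the reads implied by the intervals (1 to 9, within 0.06 of a whole number) were even for 36.3% of 2157 genes in control and 88.4% of 1793 in Klf9-OE PGCs. Klf9-OE intervals may therefore be too narrow, and they were also widened by the square root of 2. Further alternatives were other pseudocounts, filters, scalings, the highest row per symbol and a 4-fold threshold. Gene positions came from GENCODE M21 (GRCm38, the assembly of mm10), and 36 of 36 loci overlapped them. 1 gene of the lists is not reported here. The steps were tested on simulated data. Python 3.11.15, numpy 2.4.6, pandas 2.3.3 and matplotlib 3.10.9 were used.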

Additional observations from a re-analysis of the deposited data

How the results depend on the processing

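With pseudocounts of 0.01 and 1, no pseudocount, a minimum RPKM of 1 in either library, a value above 0 in each library, either rescaling, the highest row per symbol and a 4-fold threshold, 0 meiosis genes were called higher and 0 lower, as reported. Some of these settings could not change the count. A 4-fold threshold can call no gene where the 2-fold rule called none. The filters removed no meiosis gene, the lowest being Mei4 at 4.64 in the control library and 4.16 in the Klf9-OE library. The highest row per symbol gave the meiosis genes the same values as the sum. The median difference ranged from -0.01 to 0.05. With widened Klf9-OE intervals 7 genes were higher and 7 lower with intervals apart (8.46% and 12% of all named genes), with the same upper quartile 10 and 7, and with the same sum 12 and 7, against 9 and 8 as reported. These 2 rescalings multiplied all Klf9-OE levels by 1.02 and 1.044, and the median difference over all named genes became 0.0115 and 0.0411. The shares of all named genes with intervals apart after rescaling are not given here, so these counts cannot be set against them. Leaving out the genes of mixed row type, an alternative chosen after seeing the data, left 7 higher and 5 lower. In all, 408 of 415 alternative values moved by less than 2 SE of estimation or, for counts, by less than 1.5 times. These include the values that such settings left unchanged. Leaving out replicates was not run, since each condition has 1 library. No paired analysis was possible because each condition has 1 library. Relative intervals were widest for Mei4, Psmc3ip and Spo11, and the control value of Hormad2 is unresolved.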

Other observations

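DNA repair genes that meiosis shares with dividing cells were measured for 28 of 29 listed, with a median difference of 0.003 and a median RPKM of 31.8 in both libraries. The intervals of 6 genes were apart and higher in Klf9-OE PGCs, and those of 3 apart and lower. H2afx, whose histone marks DNA breaks, was at 34.0 (31.9 to 36.1) in the control library and 41.4 (39.3 to 43.4) in the Klf9-OE library, and the break-sensing kinase gene Atm at 25.8 (24.6 to 27.0) and 30.5 (29.3 to 31.6). The single-strand DNA-binding subunit Rpa2 was lower, at 145 (141 to 149) and 118 (115 to 121), while Rpa1 was higher, at 77.1 (73.3 to 80.9) and 88.1 (84.8 to 91.4). Subunits of 1 complex thus lay on opposite sides of control. Brca2, to which the Hsf2bp protein binds, was at 28.1 (26.9 to 29.2) and 31.5 (30.5 to 32.6). Rad51c was listed at 0 in both libraries, and the control interval of Rad51b ran from 0 to 48.7, so neither gives a usable ratio.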
